A study of Mus musculus with 6 samples.

Results

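Wnt signalling drives the renewal of the intestinal crypt, and this account covers the genes through which an epithelial cell receives that signal and carries it to the nucleus. The members were fixed by name as 10 genes: the Frizzled receptors Fzd5 and Fzd7, the co-receptors Lrp5 and Lrp6, the scaffold Apc, beta-catenin (Ctnnb1), the TCF/LEF factors Tcf7, Tcf7l2 and Lef1, and Myc. All probe sets paired with a member symbol alone were taken, which gave 21 of 34945 single-gene probe sets, for 9 of the 10 genes and of 18193 genes in all. No probe set was paired with Tcf7, which was not analysed here.

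The arrays were made from intestinal epithelial cells of C57BL/6 mice in 2 groups. The caspase-8 deficient group (n = 3) carried floxed casp8 together with villin-Cre, and the floxed control group (n = 3) carried floxed casp8 and was villin-Cre negative. The villin promoter drives Cre in epithelial cells, so other cells in the preparation keep the gene, and the labels used here give neither the age of the mice nor the exons removed. Values are the authors' RMA signals on a log2 scale, where 1 unit is a doubling, and differences are caspase-8 deficient minus floxed control.

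As background, Wnt proteins bind a Frizzled receptor together with LRP5 or LRP6. Without them, a complex built on APC and AXIN marks beta-catenin for destruction. With them, beta-catenin accumulates, enters the nucleus and joins TCF/LEF factors on DNA, where genes such as Myc, Axin2 and Lgr5 are switched on. In the gut this keeps stem cells dividing at the crypt base, and inactivation of APC is the usual first step to colorectal tumours. Much of this control acts on beta-catenin protein, which an expression array does not measure.

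The epithelial origin of the samples was plain in the signals. All 11 epithelial markers measured, among them Epcam, Vil1 and Cdx2, lay above the median of all genes, and their mean ran from 11.83 to 11.95 in deficient arrays and from 11.83 to 12.04 in control arrays. Casp8 averaged 9.74 ± 0.58 in deficient cells and 10.17 ± 0.40 in control cells (SD, n = 3 each). Its groups overlapped (limma adjusted p = 0.518), so its signal did not show the deletion. Whether its probe set covers the removed exons was not examined. The difference between the 3′ and 5′ Gapdh control probe sets, which grows as RNA degrades, was 0.29, 0.21 and 0.23 in deficient replicates 1, 2 and 3, and 0.68, 0.93 and 0.22 in control replicates 1, 2 and 3. Deficient replicate 1 had an endothelial marker level of 6.63 (mean of 11 genes), against 4.27 on each of the other deficient arrays and 4.07 to 4.43 on the controls. Control replicate 3 had a B and plasma cell level of 5.97 (mean of 10 genes), against 4.60 to 4.81 on the deficient arrays and 4.91 and 4.92 on the other controls. In such bulk samples, fewer cells of a type and less RNA per cell cannot be told apart.

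None of the 9 measured members passed the test across all genes. In limma, 0 of 9 had an adjusted p under 0.05, where 0.775% of all genes did. At an unadjusted p under 0.05 there were 2, against 16.6% of all genes: Fzd7 on the higher side, with 8.12% of all genes, and Fzd5 on the lower side, with 8.53%. The same 2 genes were those whose groups did not overlap, a property of 22.7% of all genes, so neither share stood clear of the background. With arrays weighted by their noise, 1 of 9 members, Fzd7, passed (adjusted p = 0.0416), where 1406 of 18193 genes did. It was the sole member to pass under any of the 16 alternatives run. The 9 differences ran from -0.48 to 0.58 with a median of -0.040, against 0.022 over all genes. Their median size was 0.14, against 0.16 over all genes.

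**Figure D1:**
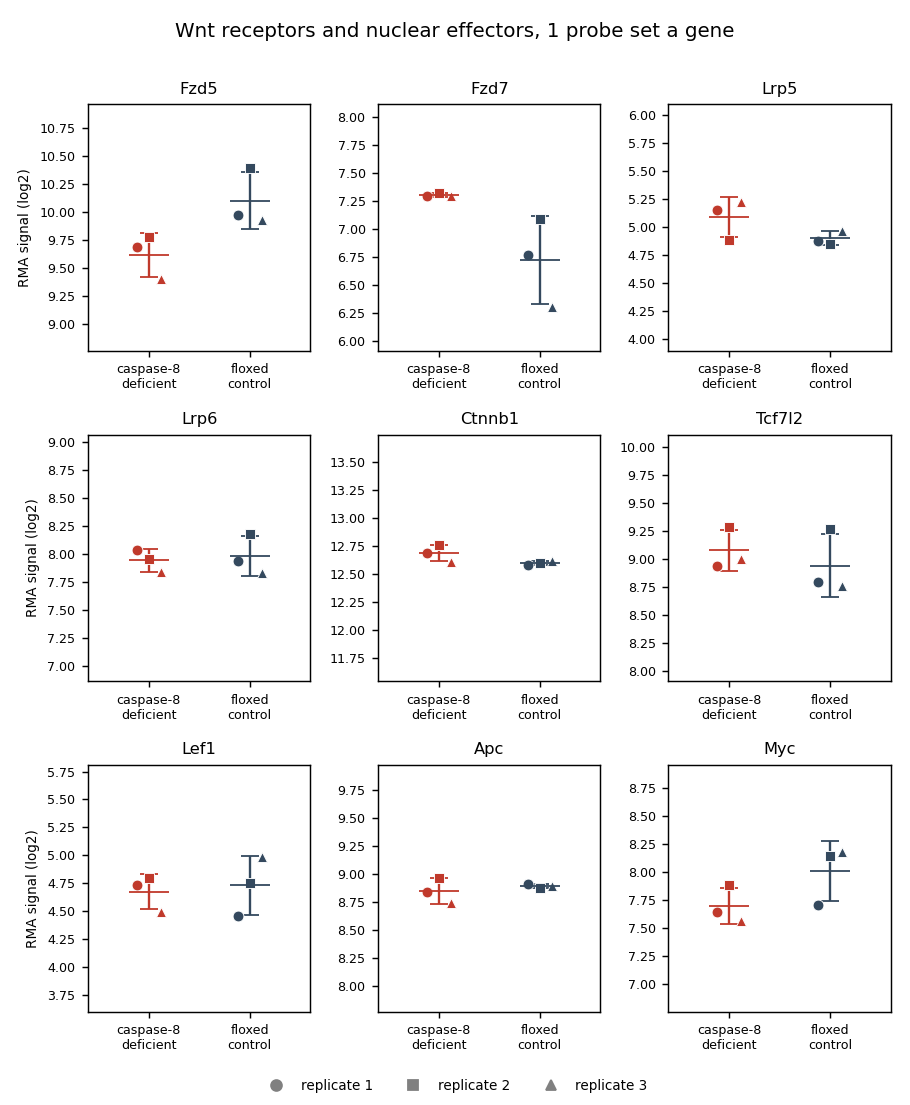
RMA signal (log2) of the 9 measured members on each array, by the probe set with the highest mean of each gene. Each panel spans 2.2 log2 units, with caspase-8 deficient arrays on the left and floxed controls on the right; symbols mark replicates, the long bar is the mean and the whiskers are 1 SD (n = 3). Fzd5 and Fzd7 are the panels in which the groups do not overlap.

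The receptors came first in the pathway and held both members with separate groups. Frizzled proteins are membrane receptors with a Wnt-binding domain outside the cell, and Fzd5 is a main Frizzled of the intestinal epithelium. Fzd5 read 9.69, 9.77 and 9.40 in deficient replicates 1, 2 and 3, and 9.98, 10.40 and 9.93 in control replicates 1, 2 and 3. All 3 deficient arrays lay below the lowest control, by a gap of 0.16. The difference was -0.48 (SE 0.17, 95% confidence interval -0.86 to -0.099), or 1.40-fold lower, and did not pass (limma adjusted p = 0.216). The dimmer probe set of Fzd5 stood at -0.21 with overlapping groups. With the Gapdh difference as a covariate the Fzd5 difference was -0.27 (adjusted p = 0.738). Without control replicates 1 and 2, which left a single control array, it was -0.31.

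Fzd7, a Frizzled that transmits Wnt signals to stem cells of the crypt, had the opposite sign. It read 7.30, 7.33 and 7.30 in deficient cells, against 6.77, 7.10 and 6.31 in control cells. The deficient arrays were nearly identical, and the controls spread over more than the distance between the groups. The difference was 0.58 (SE 0.19, interval 0.14 to 1.02), or 1.49-fold higher (limma adjusted p = 0.201). The dimmer Fzd7 probe set gave -0.057, and the mean of both probe sets moved the value to 0.26 (adjusted p = 0.298). Control replicate 3, which had the lowest Gapdh difference of the controls, was also the lowest for Fzd7. With the Gapdh difference as a covariate the Fzd7 difference was 0.97 (adjusted p = 0.0854), and without control replicate 3 it was 0.37 (adjusted p = 0.252).

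The promoters of this pair are printed because their genes were the members with separate groups, and that of Mmp7 because it is a Wnt target that fell and holds the TCF/LEF core. Each is 300 bases of RefSeq, build GRCm38.p6, written 5′ to 3′ on the gene's strand from 250 bases before the gene's start to 50 after it. Fzd5 is chr1:64737701-64738000 (minus strand), Fzd7 chr1:59481897-59482196 (plus) and Mmp7 chr9:7691840-7692139 (plus). Capitals mark a match to CTTTGNT on either strand, a form of the TCF/LEF core, and the rest is in lower case.
Fzd5: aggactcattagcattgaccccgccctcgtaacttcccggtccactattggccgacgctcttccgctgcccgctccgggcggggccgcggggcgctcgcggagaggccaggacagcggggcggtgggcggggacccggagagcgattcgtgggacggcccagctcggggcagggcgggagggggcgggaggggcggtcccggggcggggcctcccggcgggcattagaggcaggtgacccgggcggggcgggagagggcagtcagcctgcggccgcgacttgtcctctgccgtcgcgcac
Fzd7: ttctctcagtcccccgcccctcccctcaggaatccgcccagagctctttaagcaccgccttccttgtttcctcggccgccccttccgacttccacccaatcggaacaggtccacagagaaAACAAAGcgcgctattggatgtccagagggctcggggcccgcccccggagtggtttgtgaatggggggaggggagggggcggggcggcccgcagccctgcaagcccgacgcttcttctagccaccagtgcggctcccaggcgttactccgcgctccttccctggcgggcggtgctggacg
Mmp7: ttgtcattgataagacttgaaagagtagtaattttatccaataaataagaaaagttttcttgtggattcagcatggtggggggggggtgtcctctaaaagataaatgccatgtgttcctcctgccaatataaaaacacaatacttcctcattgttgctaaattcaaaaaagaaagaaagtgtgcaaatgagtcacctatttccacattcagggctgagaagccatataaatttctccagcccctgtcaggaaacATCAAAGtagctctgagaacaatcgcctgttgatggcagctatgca

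The stricter core CTTTGAT, searched on both strands, was in 3.73% of the 32851 promoter windows of the table, the looser CTTTGNT in 18.6%, and CACGTG, the E-box that MYC and MAX bind, in 7.15%. Every match to the stricter core is also a match to the looser. The table held 12 windows for 6 members: Fzd5, Fzd7, Ctnnb1, Tcf7, Tcf7l2 and Lef1. Of these 0 held the stricter core, 2 the looser (Fzd7 and a second start of Tcf7l2) and 1 the E-box (an internal start of Lef1). The Wnt targets Axin2, Lgr5, Sox9 and Mmp7 were searched too, and the table held windows for Axin2 and Mmp7 alone. The Axin2 window held 0 matches to either core, and the match printed for Mmp7 begins at +5, after the gene's start. A second Mmp7 window, of a later start, held the same match at -247 and the E-box at -50. These letters describe the windows and show no binding.

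The LDL receptor-related co-receptors showed smaller differences. Lrp6, which is phosphorylated when Wnt binds and then recruits AXIN to the membrane, read 8.04, 7.96 and 7.83 in deficient cells, against 7.94, 8.18 and 7.83 in control cells. The groups overlapped, and the difference of -0.040 (interval -0.34 to 0.26) was within the spread of either group. Its second probe set stood at -0.15. Lrp5, the closest relative of Lrp6, read 5.16, 4.89 and 5.23 in deficient cells and 4.88, 4.86 and 4.97 in control cells. That difference was 0.19 (SE 0.13, interval -0.10 to 0.48, adjusted p = 0.493), with a signal below the median of all genes, where RMA understates changes. It was 0.29 without deficient replicate 2 and 0.12 without deficient replicate 3.

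Beta-catenin was measured by 3 probe sets, all of which gave positive differences. Ctnnb1 has a second role in adherens junctions, where the protein ties E-cadherin to the actin skeleton. By its brightest probe set, 1420811_a_at, it read 12.69, 12.76 and 12.61 in deficient cells and 12.58, 12.60 and 12.62 in control cells. The groups overlapped in a narrow range, with a difference of 0.087 (SE 0.11, interval -0.16 to 0.33, adjusted p = 0.719). By 1450008_a_at the values were 10.17, 10.30 and 10.17 in deficient cells, against 9.92, 9.58 and 9.93 in control cells. There every deficient array lay above every control, and the difference was 0.40 (SE 0.13, interval 0.091 to 0.71, adjusted p = 0.228 over all probe sets). By 1430533_a_at they were 7.66, 7.83 and 7.43 in deficient cells, against 7.13, 7.28 and 7.42 in control cells, a difference of 0.36 (SE 0.14, adjusted p = 0.292) with groups that parted by 0.0036. The mean of all 3 moved the gene's difference to 0.28 (adjusted p = 0.248), and leaving out deficient replicate 2 moved it to 0.051.

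Apc, the scaffold of the complex that removes beta-catenin, was measured by 4 probe sets that did not share a sign. The brightest, 1420956_at, read 8.85, 8.97 and 8.74 in deficient cells and 8.91, 8.88 and 8.89 in control cells. Its difference was -0.042 (SE 0.11, interval -0.30 to 0.21, adjusted p = 0.884). 1435543_at read 8.49, 8.47 and 8.09 in deficient cells, against 8.78, 9.04 and 8.63 in control cells, with no overlap. Its difference was -0.47 (SE 0.16, interval -0.84 to -0.096) and did not pass (adjusted p = 0.237). 1450056_at stood at 0.26 and 1420957_at at -0.18, both with overlapping groups.

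**Figure D2:**
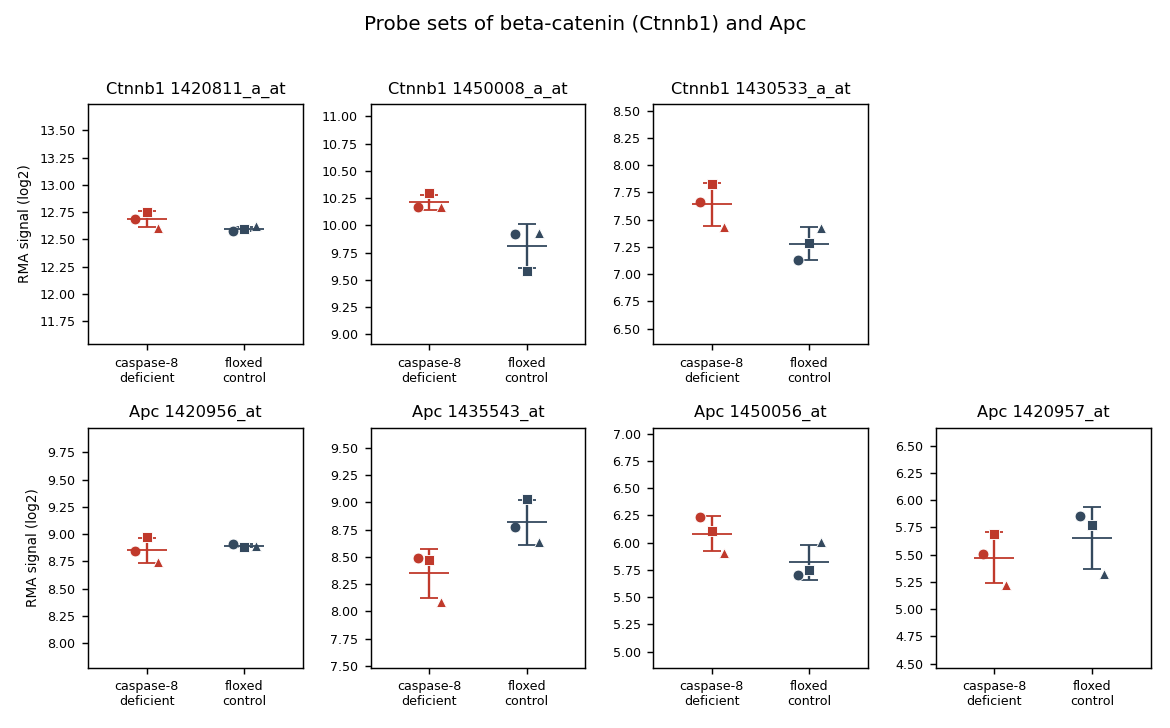
RMA signal (log2) of each array for the 3 Ctnnb1 probe sets (upper row) and the 4 Apc probe sets (lower row), with caspase-8 deficient arrays left of floxed controls. Circles, squares and triangles are replicates 1, 2 and 3, the long bar is the mean and the whiskers are 1 SD (n = 3). Deficient arrays lie above all controls for Ctnnb1 1450008_a_at and 1430533_a_at and below all controls for Apc 1435543_at.

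Over all 21 probe sets, 0 passed in limma, where 0.398% of all probe sets did. There were 5 at an unadjusted p under 0.05 (background 15.3%), of which 3 were higher (background 7.64%) and 2 lower (background 7.69%) in deficient cells. The same 5 were the probe sets whose groups did not overlap, against a background of 21.1% (11% higher and 10.1% lower): those of Fzd5 and Fzd7 used for the gene, the pair of dimmer ones for Ctnnb1, and 1 for Apc. The differences were positive for 10 and negative for 11. All 4 Tcf7l2 and all 3 Ctnnb1 probe sets were positive, and both of Fzd5, of Lrp6 and of Lef1 were negative, while Fzd7 and Apc held both signs. The signs of the 3 dimmer Tcf7l2 probe sets, of both for Lrp6 and of both for Lef1 turned under some alternatives.

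**Figure D3:**
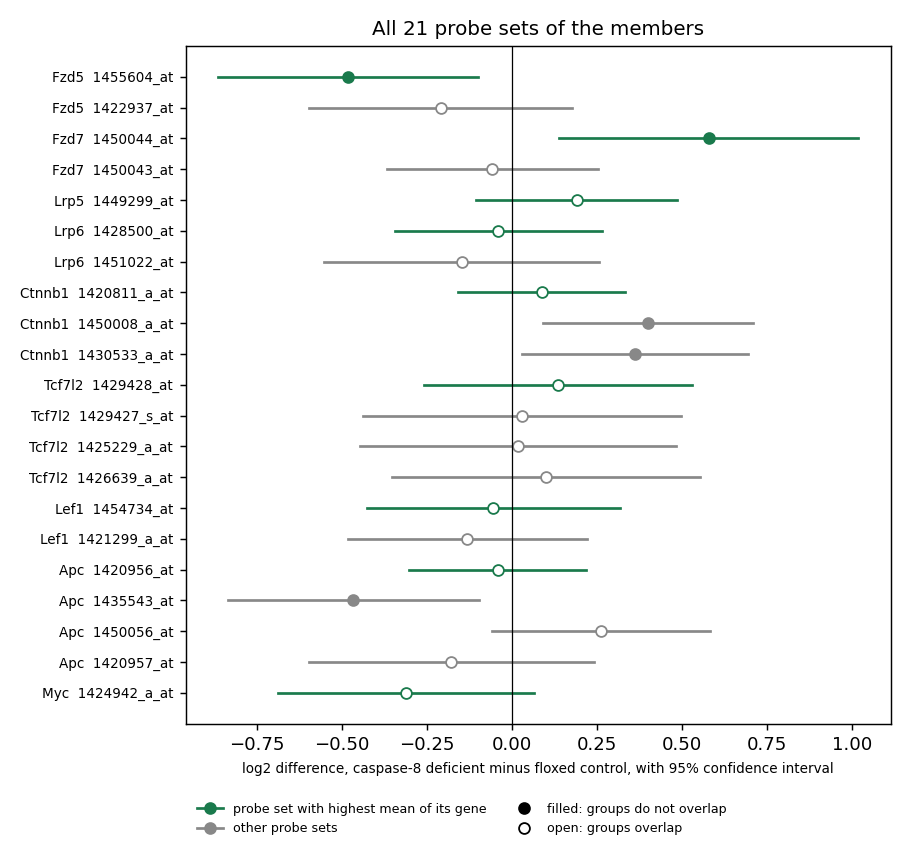
Log2 difference (caspase-8 deficient minus floxed control) of all 21 member probe sets, with its 95% confidence interval from limma (n = 3 per group). Green marks the probe set with the highest mean of its gene and grey the others, and filled points are the 5 probe sets whose groups do not overlap. The intervals of those 5 exclude 0 before adjustment, and 0 of 21 pass after it.

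Whether probe sets of 1 gene moved apart was examined on each array, as the brightest probe set minus another, for 12 such pairs in 7 genes. In 4 of the 12, Ctnnb1 with both of its others and Apc with 1435543_at and 1450056_at, the groups did not overlap, against 17.8% of 16752 pairs over all genes. For Apc minus 1435543_at the values were 0.36, 0.50 and 0.65 in deficient cells, against 0.13, -0.16 and 0.26 in control cells. For Ctnnb1 minus 1450008_a_at they were 2.52, 2.46 and 2.44 in deficient cells, against 2.65, 3.02 and 2.69 in control cells. The smallest two-sided p that an exact permutation test can give with 3 against 3 is 0.10, reached by these 4 pairs, and adjusted over the 12 it was 0.30. Any pair without overlap reaches that p, so the test could not pass and adds nothing to the overlap count. The Ctnnb1 pairs share its brightest probe set, as the Apc pairs share theirs, so the pairs are not independent. The positions of these probe sets along their transcripts were not used here.

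Among the DNA-binding partners of beta-catenin, Tcf7l2 is the main TCF factor of the intestinal epithelium, and loss of it empties the crypts of dividing cells in mice. Tcf7l2 read 8.95, 9.29 and 9.01 in deficient cells, against 8.80, 9.27 and 8.76 in control cells. The groups overlapped and the difference was 0.14 (SE 0.17, interval -0.26 to 0.53, adjusted p = 0.731). Replicate 2 was the highest of its group in both groups. Its other 3 probe sets differed by 0.018 to 0.10, and the mean of all 4 took the gene's difference to 0.071. With 1 array left out it ran from 0.031, without deficient replicate 2, to 0.30, without control replicate 2, and did not pass in any of these fits.

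Lef1, a TCF/LEF factor best known from lymphocytes and skin, was dim by both probe sets. It read 4.74, 4.80 and 4.50 in deficient cells and 4.46, 4.75 and 4.99 in control cells, below the median of 5.97 over all genes. The difference was -0.055 (SE 0.16, interval -0.43 to 0.32, adjusted p = 0.898), and its second probe set stood at -0.13. T cells, which also make Lef1, were present. The mean of 17 T cell markers ran from 7.05 to 7.54 in deficient arrays and from 7.20 to 7.75 in control arrays, with 0 of 17 called. How much of the Lef1 signal they carry was not tested.

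Myc, the growth regulator and classic beta-catenin target of the crypt, was measured by 1 probe set. It read 7.65, 7.88 and 7.57 in deficient cells, against 7.71, 8.15 and 8.18 in control cells. The deficient arrays lay lower on average, and control replicate 1 lay among them. The difference was -0.31 (SE 0.16, interval -0.69 to 0.063), or 1.24-fold lower, and did not pass (limma adjusted p = 0.382). With array weights it was -0.057 and without control replicate 1 it was -0.47, with adjusted p = 0.841 and 0.334.

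The rest of the pathway was read from 9 lists with 146 measured genes, of which 0 rose and 3 fell: Lgr5, Mmp7 and Sox9. Over all 18193 genes 56 rose and 85 fell, together 0.775%. Of the 146, 11 were higher and 31 lower at an unadjusted limma p under 0.05, against 8.12% and 8.53% of all genes. Their groups did not overlap for 16 genes on the higher and 33 on the lower side, where 11.5% and 11.2% of all genes were so. The median difference of the 146 was -0.044.

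**Figure D4:**
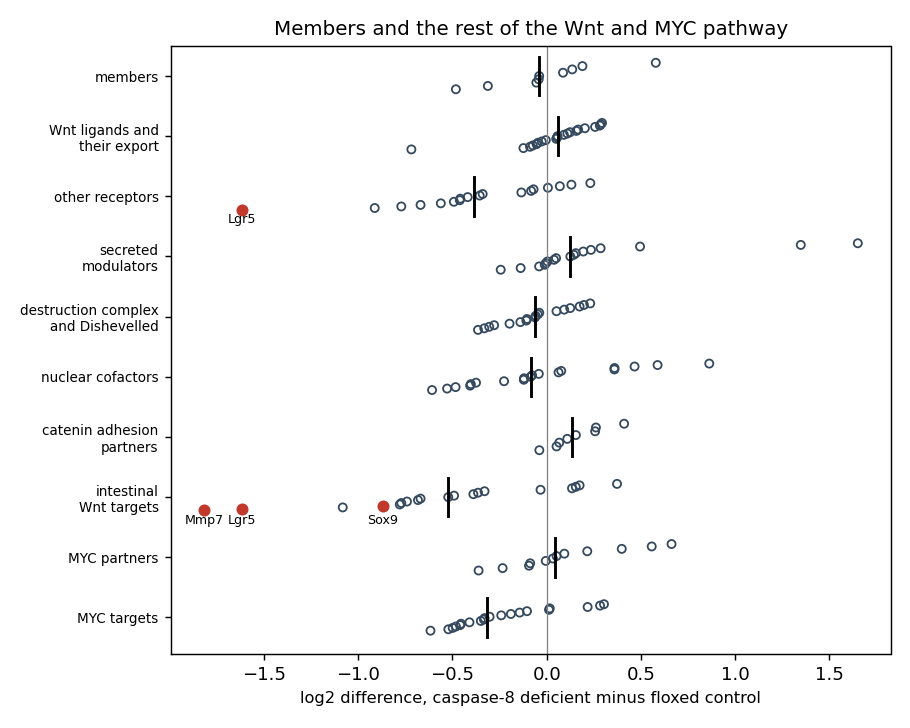
Log2 difference (caspase-8 deficient minus floxed control) of the 9 measured members and of each gene in 9 pathway lists, 1 point a gene, spread vertically in order of size, with a black bar at the median of each list. Filled red points with names passed an adjusted p of 0.05 in limma (n = 3 per group): Lgr5, which stands in 2 lists, Mmp7 and Sox9. The medians of the intestinal Wnt targets, the other receptors and the MYC targets are the lowest.

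Of 20 intestinal Wnt targets listed, 19 were measured, of which 3 fell, 0 rose and 16 did not pass. Their median difference was -0.52, and 11 of 19 lay lower in deficient cells without overlap, against 11.2% of all genes. Mmp7, the Paneth cell protease matrilysin, read 8.86, 8.94 and 8.90 in deficient cells, against 10.93, 10.08 and 11.14 in control cells, a difference of -1.82 (SE 0.25, adjusted p = 0.0258). Lgr5, the R-spondin receptor of crypt stem cells, read 5.96, 6.05 and 5.14 in deficient cells, against 7.30, 7.72 and 6.97 in control cells. That was a difference of -1.62 (SE 0.27, adjusted p = 0.0488), while its second, dim probe set stood at -0.024.

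Sox9, a transcription factor of crypt base and Paneth cells, read 6.48, 6.48 and 6.21 in deficient cells, against 7.22, 7.32 and 7.24 in control cells, a difference of -0.87 (SE 0.12, adjusted p = 0.0263). Its other probe sets stood at -0.86 and -0.36. Axin2, the feedback inhibitor that reports Wnt activity most directly, averaged 7.94 ± 0.043 in deficient cells and 8.30 ± 0.42 in control cells (SD, n = 3 each). Its groups parted by 0.016, and the difference of -0.36 did not pass (limma adjusted p = 0.403). Control replicate 2 was the highest array at 8.78, and without it the difference was -0.13 (adjusted p = 0.664). Not every target of the list lay lower. Of the 19, 4 had positive differences, the largest 0.37, and 15 had negative ones. Cd44 and Ascl2 stood at 0.13 and -0.033 without passing.

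Each of the 3 calls rested on several arrays. Without deficient replicate 1 all 3 passed. Mmp7 passed also without control replicate 2 and did not pass without any of the other 4 arrays, with adjusted p of 0.0638 to 0.133. Lgr5 and Sox9 did not pass without any of the other 5, with adjusted p of 0.0785 to 0.194 for Lgr5 and 0.0761 to 0.128 for Sox9. With the Gapdh difference as a covariate, Lgr5 and Sox9 stood at -1.25 and -0.83 (adjusted p = 0.357 and 0.20), and Mmp7 passed at -2.31. Control replicates 1 and 2 had the largest Gapdh differences. Leaving out both keeps a single control array, so that fit cannot judge the 3 calls. With the mean of a gene's probe sets, Lgr5 stood at -0.82 and Sox9 at -0.70, and neither passed (adjusted p = 0.0881 and 0.055).

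Of the other Wnt receptors, 18 were measured, with Lgr5 the 1 that fell, 0 that rose and a median difference of -0.39. In 6 of 18 the deficient arrays lay below all controls, against 11.2% of all genes. Lgr4, which also binds R-spondins, averaged 10.27 ± 0.08 in deficient cells and 10.73 ± 0.08 in control cells (difference -0.46, adjusted p = 0.111). Its second, dim probe set stood at 0.063 with overlapping groups, and the mean of both gave -0.20. Rnf43 and Znrf3, ubiquitin ligases that remove Frizzled receptors from the membrane, stood at -0.67 and -0.77 (adjusted p = 0.152 and 0.21). Lgr5, Rnf43 and Znrf3 also stand in the list of intestinal Wnt targets, so the medians of both lists are not separate results. Fzd9 differed by -0.91 (adjusted p = 0.122).

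Of 21 Wnt ligands and genes for their export 0 passed, with a median of 0.058. Wls, the carrier that takes Wnt proteins to the cell surface, read 7.05, 6.78 and 6.34 in deficient cells, against 7.54, 7.28 and 7.51 in control cells. Its groups did not overlap, and the difference of -0.72 did not pass (adjusted p = 0.13). Another pair of its probe sets gave -0.75 and -0.74, and the dimmest -0.010. The ligands Wnt10b and Wnt8a stood at 0.29 and 0.20, at dim signals.

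Of 17 secreted modulators 0 passed, with a median of 0.13. The Wnt inhibitor Dkk4 stood at 0.50, the bone inhibitor Sost at 0.19 and the agonist Rspo3 at -0.24. All were dim, with means over the arrays of 3.57, 2.86 and 2.82, against a median of 5.97 over all genes. Without deficient replicate 3, the highest array of both inhibitors, Dkk4 stood at 0.24 and Sost at 0.10. A second probe set of Rspo3 stood at 0.079, and the mean of both gave -0.082. A single array set the largest values of this list. Dkk2 read 7.40 in deficient replicate 1, against 2.25 and 2.94 on the other deficient arrays and 2.21 to 2.80 on the controls. Sfrp2, which binds Wnt proteins outside the cell, read 8.57 there, against 2.36 and 2.89 on the other deficient arrays and 2.96 to 3.42 on the controls. On that replicate these 2 pathway genes exceeded all 5 other arrays by more than 1 log2 unit, as 211 genes did in all and 0 members. It was also the array with the high endothelial level and the highest fibroblast and smooth muscle level. The latter (mean of 14 genes) was 5.21, against 4.62 and 4.39 on the other deficient arrays and 4.31 to 4.81 on the controls. The part of such cells in the Dkk2 and Sfrp2 values was not tested.

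Of 18 genes of the destruction complex and Dishevelled 0 passed, with a median of -0.060. Amer1, which brings APC to the membrane, stood at -0.30, and its dimmer probe set at -0.60 (limma adjusted p = 0.0989 over all probe sets). Neither had overlapping groups, and neither passed. Dvl3, a Dishevelled that relays the receptor signal, stood at -0.33 (-0.18 without deficient replicate 3). Gsk3b, the kinase that marks beta-catenin, stood at -0.039. Of 19 nuclear cofactors 0 passed, with 4 higher and 5 lower without overlap (11.5% and 11.2% of all genes). Cdc73, a subunit of the PAF complex that beta-catenin recruits, read 9.29, 9.77 and 9.59 in deficient cells, against 8.85, 8.30 and 8.91 in control cells. That difference was 0.86 (adjusted p = 0.0986), with its other 6 probe sets between -0.066 and 0.34, and the mean of all 7 gave 0.25. Kdm2b, a histone demethylase, stood at -0.61 (adjusted p = 0.0956) and Bcl9, the bridge from beta-catenin to Pygopus, at -0.53. Tle1, a co-repressor of TCF factors, stood at 0.59. Of 8 adhesion partners of the catenins 0 passed, with a median of 0.13, and Nectin2, Vcl and Ctnnd1 stood at 0.41, 0.26 and 0.26. Other probe sets of Nectin2 and Ctnnd1 stood at -0.091 and -0.21, and the mean of a gene's probe sets gave 0.16 for Nectin2, 0.15 for Vcl and 0.13 for Ctnnd1.

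Genes around Myc were measured too. Of 12 MYC partners and relatives 0 passed. Max, the partner MYC needs to bind DNA, read 10.48, 10.32 and 10.29 in deficient cells, against 9.71, 9.94 and 9.77 in control cells. Its groups did not overlap, and the difference of 0.56 did not pass (adjusted p = 0.0886), though it did without dim genes (adjusted p = 0.0457) and with array weights (adjusted p = 0.0139). Mxd1, which competes with MYC for MAX, stood at 0.40 (adjusted p = 0.18), with its other probe sets at 0.54 and 0.39. Mlx stood at 0.66 (adjusted p = 0.245), or 0.25 with the Gapdh covariate. Both Mlx probe sets had overlapping groups, and the dimmer stood at 0.36.

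Of 20 MYC target genes 0 passed, with a median of -0.32 and 9 of 20 lower in deficient cells without overlap, against 11.2% of all genes. The nucleolar genes Nop56, Dkc1 and Nop58, which serve ribosome assembly, stood at -0.48, -0.46 and -0.41 (adjusted p = 0.107 to 0.131). Odc1, the enzyme of polyamine synthesis, stood at 0.30 with its deficient arrays above all controls. Array weights, which gave control replicate 1 a weight of 2.97 and deficient replicate 2 a weight of 2.36, passed 4 pathway genes as higher and 19 as lower, against 1406 of all genes.

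The genes whose profile over the 6 arrays was most like that of a member were ranked among 8088 genes with a spread of at least 0.2 (SD). For Fzd5 they were Itpr2 and Pelp1, both with r = 0.998, and 220 genes reached r over 0.95. For Fzd7 they were Synpo (r = 0.984) and Tbc1d22a (r = 0.98), and for Myc Hk2 (r = 0.993) and Tekt5 (r = 0.984). For Ctnnb1 they were Llcfc1 and Spats2l, for Tcf7l2 Grina and Mall, and for Lrp6 Tead1 and Rsf1, at r of 0.981 to 0.997. For Lef1 they were Ifitm6 and Spag1, for Lrp5 H2-M9 and Lrrc27, and for Apc Hrh1 and Camk2b, at r of 0.942 to 0.991. With 6 arrays and so many candidates, values near 1 arise readily, and the arrays share the 2 groups.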

How the data were processed

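The authors deposited log2 expression values for 6 arrays of a 3′ Affymetrix platform, made with RMA per the submitters' processing notes, with no version named. RMA corrects background, equalises the distribution of the arrays and summarises each probe set. The values ran from 1.13 to 14.1, with array medians of 4.85 to 4.91, no detection calls and no genome build. The number of arrays limits the precision.

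Probe sets were named from the platform annotation: 34945 had 1 gene, 932 several and 9160 none, and 64 control probe sets were left out. A gene was represented by its probe set with the highest mean. Deficient minus control was fitted with limma 3.58.1 (lmFit, then eBayes; two-sided; group was the sole term) in R 4.3.3, over 18193 genes and, separately, over all 34945 single-gene probe sets. Benjamini-Hochberg adjustment ran over each whole table, and an adjusted p under 0.05 passed. The p-values weigh the group difference against the spread between arrays that the labels call biological replicates, as moderated by eBayes over all features. In 10 simulated draws of this comparison with 18193 genes, the test found 3.6% of the genes given a log2 change of 0.5, 70.6% of those given 1 and 97.6% of those given 2.

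The members, lists, naming rule and tests were chosen with earlier results of these data known. The rule names the members, their probe sets, genes of each list that passed or had the smallest 3 p-values, and the 2 most similar profiles for each member. Cd44, Ascl2, Rnf43, Znrf3, Gsk3b, Tle1, Odc1, Dkk2 and Sfrp2 are named outside it, after their values were seen. The lists held 149 names, of which 146 genes were measured. Alternatives changed the probe set per gene, dim-feature filter, centring, normalisation, variance prior, array weights, arrays left out, replicate block or Gapdh covariate. Promoters were read with Python 3.11.15 and pandas 2.3.3, and plots drawn with matplotlib 3.10.9.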

Additional observations from a re-analysis of the deposited data

How the results depend on the processing

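The count of 0 member probe sets that passed was the same under all 15 alternatives run for it. That of 0 member genes held under 15 of 16, with 1 under array weights, where 1406 of all genes passed. Fzd5, Fzd7, Lrp5, Ctnnb1, Tcf7l2 and Myc kept the sign of their gene difference under every alternative run. Of 146 pathway genes, 3 fell and 0 rose. Lower calls numbered 1 with the mean of a gene's probe sets, 19 with array weights, 1 with the Gapdh covariate, and 0 to 4 with 1 array left out. Higher calls numbered 4 with array weights and 1 without dim genes. Same-numbered arrays of the 2 groups correlated at 0.077, 0.10 and -0.0074 in their deviations from the group means. Differently numbered arrays correlated at -0.13 to 0.012. The same-numbered values 0.077 and 0.10 were above that range and -0.0074 was within it, and these values do not settle whether arrays were paired. The numbers were not taken as pairs because the labels do not say that they pair animals. With replicate number as a block, 2 pathway genes fell, Sox9 missing at adjusted p = 0.0541, and 0 members passed. No other call among members and pathway genes changed. The block gave 113 calls over all genes and 108 over all probe sets, against 141 and 139 without it.

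Over all genes 141 passed, and 139 over all probe sets. These were 298 and 362 without dim features, 252 and 250 with a variance trend and robust prior, 1406 and 1631 with array weights, 36 and 23 with the Gapdh covariate, and 5 and 3 without floxed controls 1 and 2. With 1 array left out they ran from 18 to 251 and from 19 to 291, both highest without deficient replicate 1. The cause was not tested.

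Differences near 0 turned sign. With array weights Lrp6 stood at 0.0030, Lef1 at 0.14 (0.0014 by its dimmer probe set) and Apc at 0.0029, and with median centring these genes stood at 0.022, 0.0067 and 0.019. With the Gapdh covariate, Lrp6 stood at 0.13, its probe set 1451022_at at 0.044 and the Apc probe set 1420957_at at 0.067, and without floxed controls 1 and 2 at 0.11, 0.055 and 0.15. With 1 array left out, Lrp6 ran from -0.12 to 0.059, its probe set 1451022_at from -0.27 to 0.021, Lef1 from -0.19 to 0.072 and Apc from -0.10 to 0.013. The Tcf7l2 probe sets 1429427_s_at, 1425229_a_at and 1426639_a_at ran from -0.096 to 0.24, -0.093 to 0.21 and -0.026 to 0.28.

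In simulation 3.6% of genes given a log2 change of 0.5 were found, so a member that did not pass is not shown to be unchanged. Leaving out dim features gave no gene value for Lrp5 and Lef1, and averaging a gene's probe sets none at probe-set level. The cause of each sign change was not tested.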
